A study of Malus domestica with 15 samples.

Results

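In the skin of stored apples (Malus domestica), 86 loci had opposite differences over the same 7 days of shelf life in the 2 treatments. They were at least 1 log2 unit lower after shelf life than before it in fruit treated with 1-methylcyclopropene (1-MCP), and at least 1 log2 unit higher in control fruit. They were picked from 30310 loci that carry an apple gene model, have no value of 0 in any group and average at least 1 FPKM, out of 80965 loci in the deposited table. FPKM counts fragments per kilobase of transcript length, scaled to the number mapped in the library. Unless log2 FPKM is named, log2 differences here are of log2(FPKM + 1), which understates differences at low levels.

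The groups were 1-MCP fruit kept cold for 2 months and then held for 7 days of shelf life, 1-MCP fruit taken straight from the 2 months of cold, called before shelf life here, control fruit at the same 2 times, and fruit at harvest, which were neither treated nor stored. The labels name 3 biological replicates per group and a final 1-MCP concentration of 0.7 µl/L. The labels do not name a cultivar. The table gives 1 value per locus and group, so no difference below has an SD, a p-value or a replicate check, and library depth is unknown.

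Ethylene is the gas hormone that drives ripening in apple, a climacteric fruit. It binds receptors that are active without it and switches them off, which frees the downstream transcription factors, and ripening fruit make more ethylene in response to ethylene. 1-MCP occupies these receptors and keeps them in the signalling state of air, and is used in storage to slow ripening and to limit superficial scald, a browning of the skin that develops in the warm after cold storage. The series title names scald resistance under ethylene inhibition as its subject.

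The table pairs no gene model with a name or a function, and a search of the RefSeq gene table (apple assembly GDT2T_hap1) matched 0 of its 63541 gene model identifiers. The loci are therefore given by identifier, MDP for a gene model and CUFF for an assembled locus, with no name, role, position or sequence. For the same reason neither the skin markers nor the pathway lists could be read in these data. In whole skin, fewer cells of a type and less RNA per cell cannot be told apart.

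Each of the 2 conditions that chose the loci held for a small share of all loci. Of the 30310 loci, 4.5% were lower after shelf life by at least 1 log2 unit in 1-MCP fruit and 3.13% were higher after it in control fruit. Both held at 0.284% of loci. The 86 loci made up 6.30% of the 1365 loci lower after shelf life in 1-MCP fruit and 9.07% of the 948 loci higher after it in control fruit. These values are the choice itself and support nothing.

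**Figure D1:**
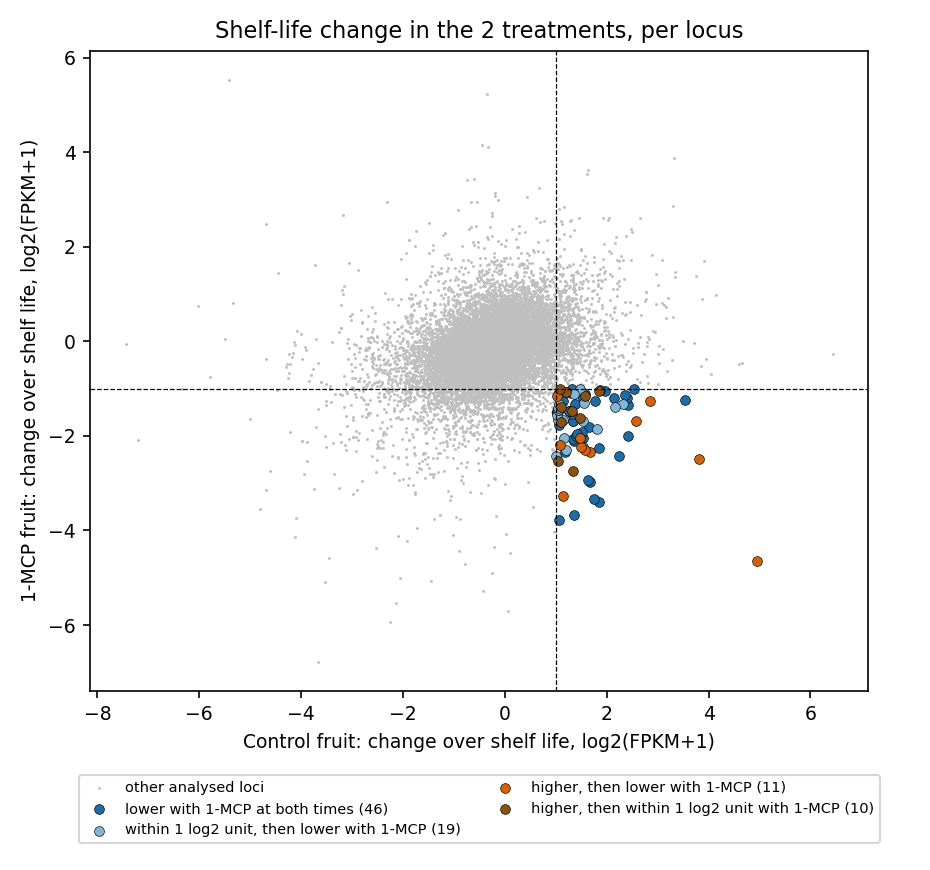
Each point is 1 of 30310 loci, with its shelf-life difference in control fruit on the x axis and in 1-MCP fruit on the y axis, both in log2(FPKM + 1); dashed lines mark the limits of 1 and -1, and colours mark 4 classes of the 86 loci. The 86 loci fill the lower right corner by the choice itself. The locus at the lower right, MDP0000348219, lies at -4.65 in 1-MCP fruit and 4.95 in control fruit.

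Across the 86 loci the median level was 8.25 FPKM after shelf life in 1-MCP fruit, against 33.1 FPKM before shelf life. In control fruit it was 269 FPKM after shelf life, against 69.1 FPKM before shelf life. The median at harvest was 24.0 FPKM. The difference over shelf life had a median of -1.66 in 1-MCP fruit and 1.44 in control fruit, where the medians of all 30310 loci were -0.13 and -0.24. Which of the 2 medians was the larger in size depended on the scaling of the columns, given with the general levels at the end.

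At every locus the rule puts 1-MCP fruit lower after shelf life than before it, and control fruit higher. 1-MCP fruit before shelf life and control fruit after it could thus never be lowest. Likewise, 1-MCP fruit after shelf life and control fruit before it could never be highest, so the orders are in part the choice itself. The lowest of the 5 values was that of 1-MCP fruit after shelf life at 50 of the 86 loci, of control fruit before shelf life at 12 and of harvest at 24. The highest was that of 1-MCP fruit before shelf life at 12 loci, of control fruit after shelf life at 69 and of harvest at 5. Of the 21 orders of the 5 groups that occurred, the most frequent held at 26 loci. It had 1-MCP fruit after shelf life lowest, then 1-MCP fruit before shelf life, harvest, control fruit before shelf life and control fruit after shelf life. After shelf life, 1-MCP fruit stood at least 10-fold below control fruit in FPKM at 58 loci and at least 100-fold below at 18. Both groups entered the rule, and the shares of all loci at these folds were not computed, so these counts only describe the loci.

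The locus with the most opposed differences was CUFF.41906 (MDP0000348219), at 3.95 FPKM after shelf life and 123 FPKM before shelf life in 1-MCP fruit. In control fruit it was at 76.2 FPKM after shelf life and 1.5 FPKM before shelf life. Its harvest value of 2.68 FPKM lay close to the 2 low values, so this transcript was high at 1 time in each treatment, before shelf life with 1-MCP and after it without. The shelf-life difference in 1-MCP fruit minus that in control fruit was -9.60, and -6.30 at the next locus.

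That locus, CUFF.36554 (MDP0000345170), had the same shape at a higher level. It was at 21.9 FPKM after shelf life and 127 FPKM before shelf life in 1-MCP fruit, against 239 and 16.1 FPKM at these times in control fruit. Its harvest value was 18.5 FPKM, again beside the 2 low values. The other 6 of the 8 most opposed loci were lower with 1-MCP than without it at both times.

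MDP0000128562 was at 1.94 FPKM after shelf life and 30.2 FPKM before shelf life in 1-MCP fruit, against 1572 and 434 FPKM in control fruit. MDP0000390049 was at 4.48 and 54.1 FPKM at the same 2 times in 1-MCP fruit, against 1121 and 332 FPKM in control fruit. At harvest they were at 28.7 and 7.82 FPKM, so with 1-MCP after shelf life MDP0000128562 stood below harvest by more than 1 log2 unit and MDP0000390049 within that distance (-0.69). Without 1-MCP both stood far above harvest.

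MDP0000782085 was at 61.1 FPKM after shelf life and 785 FPKM before shelf life in 1-MCP fruit, against 17240 and 6718 FPKM in control fruit. CUFF.32740 (MDP0000570395) was at 117 and 1617 FPKM in 1-MCP fruit, against 8611 and 4127 FPKM in control fruit. At harvest these loci were at 50.1 and 53.1 FPKM. Both were thus above harvest before shelf life in either treatment. After shelf life in 1-MCP fruit they stood closer to harvest, with log2 differences from it of 0.28 and 1.12.

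MDP0000206473 had the largest treatment difference of the 86 loci after shelf life on the log2(FPKM + 1) scale (-9.76), at 12.7 FPKM with 1-MCP against 11918 FPKM without. As a plain ratio of FPKM the largest was at MDP0000312569, singled out after its values were seen, at 0.231 FPKM with 1-MCP against 256 FPKM without (1108-fold, against 935-fold at MDP0000206473). Before shelf life MDP0000206473 was at 31.5 FPKM with 1-MCP against 1031 FPKM without, and at harvest at 29.0 FPKM. MDP0000533638 was at 7.62 FPKM after shelf life and 67.2 FPKM before shelf life in 1-MCP fruit, against 1794 and 558 FPKM in control fruit, and at 152 FPKM at harvest. In 1-MCP fruit it was below harvest at both times.

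**Figure D2:**
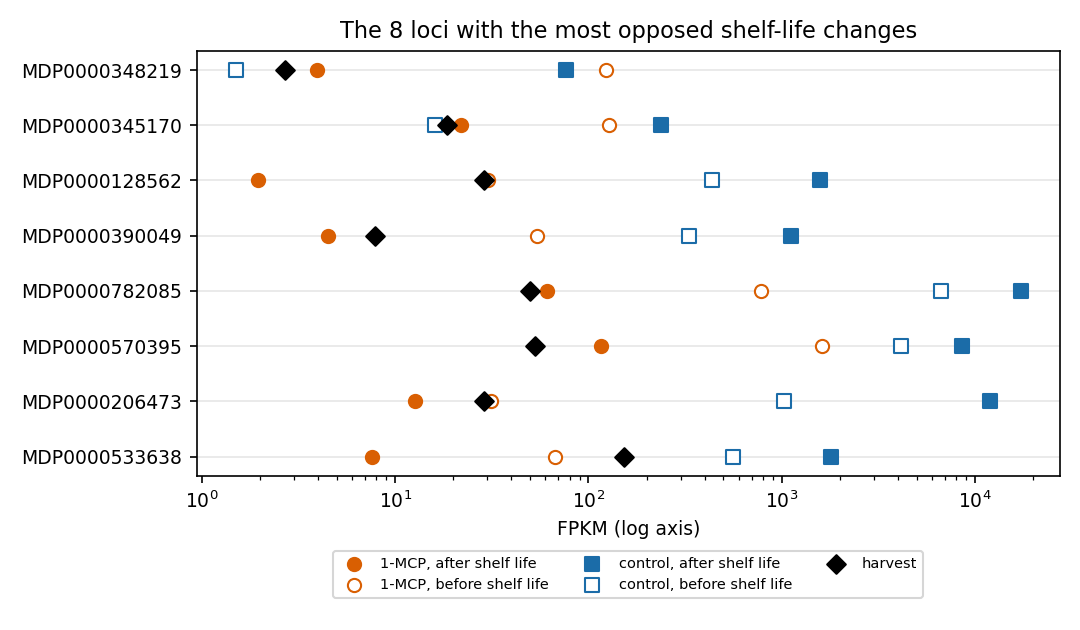
FPKM on a log axis for the 8 loci with the most opposed shelf-life differences, in 1-MCP fruit (circles) and control fruit (squares), filled after shelf life and open before shelf life, with harvest as a diamond. In the upper 2 loci the open circle lies right of the open square; in the other 6 both circles lie left of both squares, and MDP0000206473 spans 12.7 to 11918 FPKM.

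The loci fell into 4 classes by the difference between 1-MCP and control fruit at each time. The rule makes these 2 differences lie at least 2 log2 units apart at every locus, so they are given as a description. Before shelf life 21 loci were higher with 1-MCP by at least 1 log2 unit and 46 were lower, where the shares of all 30310 loci were 8.9% and 8.03%. After shelf life 0 were higher and 76 lower, where the shares were 12.7% and 8.37%.

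The largest class, 46 loci, was lower with 1-MCP at both times. Its median level was 7.64 FPKM after shelf life and 32.6 FPKM before shelf life in 1-MCP fruit, against 573 and 220 FPKM in control fruit. The treatment difference had a median of -5.37 after shelf life and -2.24 before shelf life. The rule forces it to widen by at least 2 log2 units at every locus of this class, so the widening is the choice itself. The smallest treatment difference in this class after shelf life was -3.73, which the class limit and the rule also bound.

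In the second class, 19 loci differed by less than 1 log2 unit between treatments before shelf life (median 0.01). They were lower with 1-MCP after shelf life (median -2.85), as the rule requires of such loci. CUFF.21776 (MDP0000289011) was at 8.67 FPKM after shelf life and 44.3 FPKM before shelf life in 1-MCP fruit, against 170 and 58.5 FPKM in control fruit. CUFF.12107 (MDP0000271403) was at 0.474 and 4.32 FPKM in 1-MCP fruit, against 9.99 and 2.14 FPKM in control fruit. The treatment difference at these loci was -0.39 and 0.76 before shelf life, and -4.15 and -2.90 after it. At the low levels of CUFF.12107 the 1 added to FPKM makes the difference smaller than in plain FPKM.

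In the third class, 11 loci were higher with 1-MCP before shelf life (median difference 2.02) and lower with it after shelf life (median -2.14). It holds MDP0000348219 and MDP0000345170. The median level of the class was 41.4 FPKM after shelf life and 211 FPKM before shelf life in 1-MCP fruit, against 159 and 48.3 FPKM in control fruit, so each treatment held at one time about the level that the other held at the other time.

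In the fourth class, 10 loci were higher with 1-MCP before shelf life (median difference 2.76) and came to within 1 log2 unit of control fruit after shelf life (median -0.41). MDP0000801631 was at 1.70 FPKM after shelf life and 17.1 FPKM before shelf life in 1-MCP fruit, against 2.77 and 0.489 FPKM in control fruit. Its harvest value of 40.1 FPKM was above all 4 stored groups. CUFF.15536, which carries MDP0000256949 and MDP0000352639, was at 40.2 and 236 FPKM in 1-MCP fruit, against 69.5 and 33.2 FPKM in control fruit. CUFF.39057, which carries MDP0000341297 and MDP0000261159, was at 10.6 and 23.3 FPKM in 1-MCP fruit, against 21.1 and 8.59 FPKM in control fruit. The class had the lowest levels of the 4, with a median mean of 10.5 FPKM, against 173 FPKM in the class that was lower with 1-MCP at both times.

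**Figure D3:**
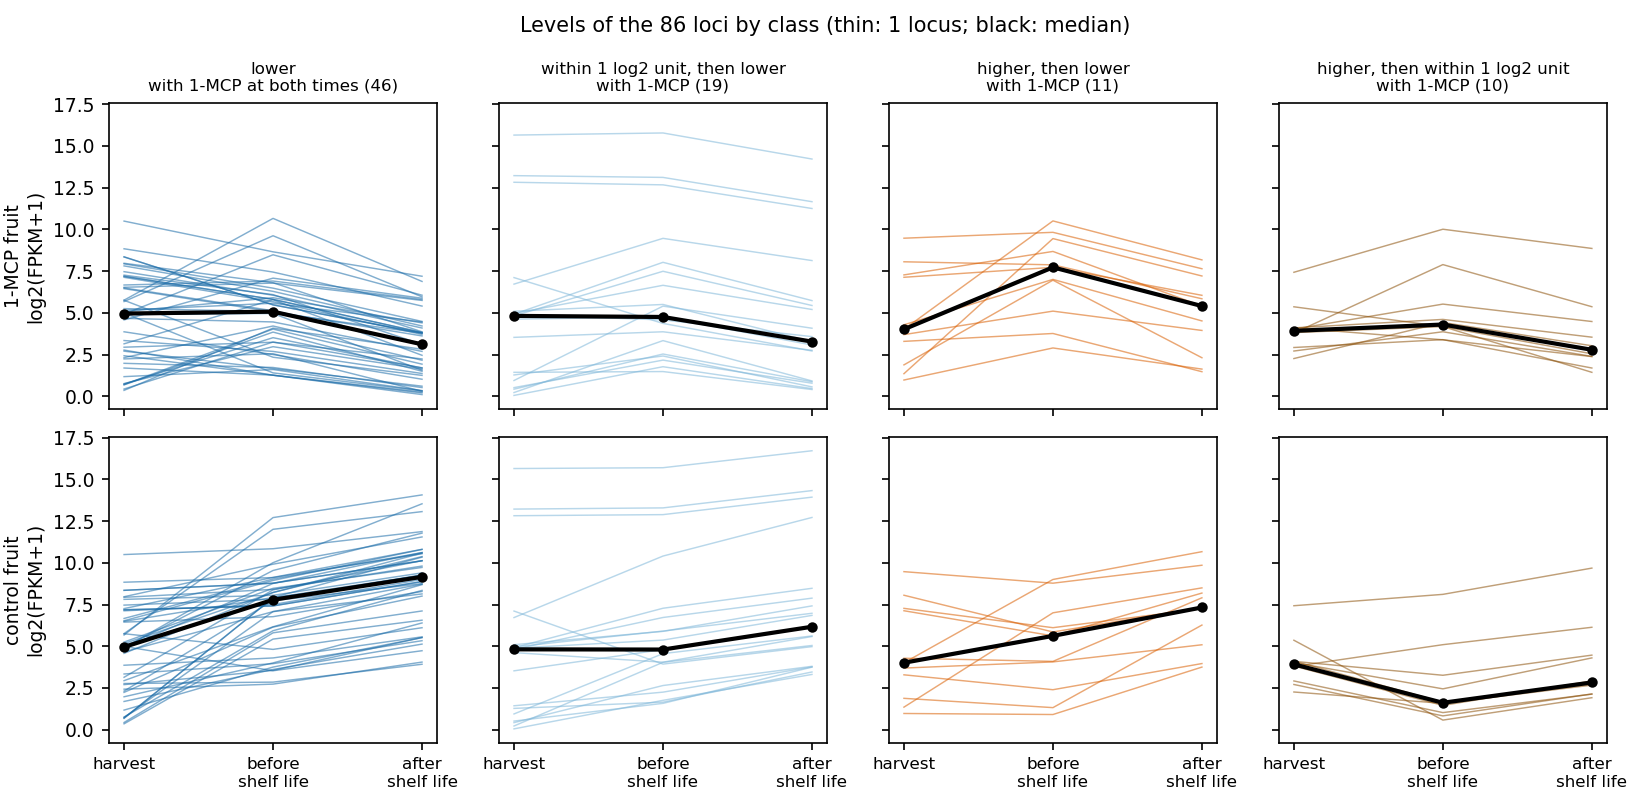
Level of each of the 86 loci (thin lines) and the class median (black) in log2(FPKM + 1) at harvest, before shelf life and after it, in 1-MCP fruit (upper row) and control fruit (lower row), for the 4 classes with 46, 19, 11 and 10 loci. Harvest is the same untreated group in both rows, and the classes fix which treatment stood higher before shelf life in all but the second. Between harvest and the first storage time the median of the first class stays near harvest in 1-MCP fruit and climbs in control fruit; in the third class the black line climbs in control fruit although the median difference of its loci from harvest was -0.56 there.

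Harvest is the only group whose value did not enter the rule beyond the filters. In 1-MCP fruit the loci ended mostly below harvest or near it. After shelf life 12 were above it by at least 1 log2 unit and 45 below (median -1.10), where 3.09% of all loci were above and 12.2% below. Before shelf life 34 were above and 22 below (median 0.36), where the shares were 5.12% and 9.63%.

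Control fruit after shelf life were above harvest at 70 of the 86 loci and below it at 3, with a median difference of 2.50. Over all 30310 loci 6.37% were above and 20.4% below, and the median was -0.36. Before shelf life, control fruit were above harvest at 40 loci and below at 11 (median 0.81), where the shares of all loci were 6.6% and 12.5%. The stored values were chosen to be high or low by the rule, so these counts describe the loci and do not test them.

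After shelf life 33 loci were below harvest in 1-MCP fruit and above it in control fruit. A further 25 were within 1 log2 unit of harvest in 1-MCP fruit and above it in control fruit, and 12 were above it in both. The remaining 16 were not above harvest by 1 log2 unit in control fruit. The rule drove the stored groups apart here too, and the matching shares of all loci were not computed, so these counts are a description only.

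**Figure D4:**
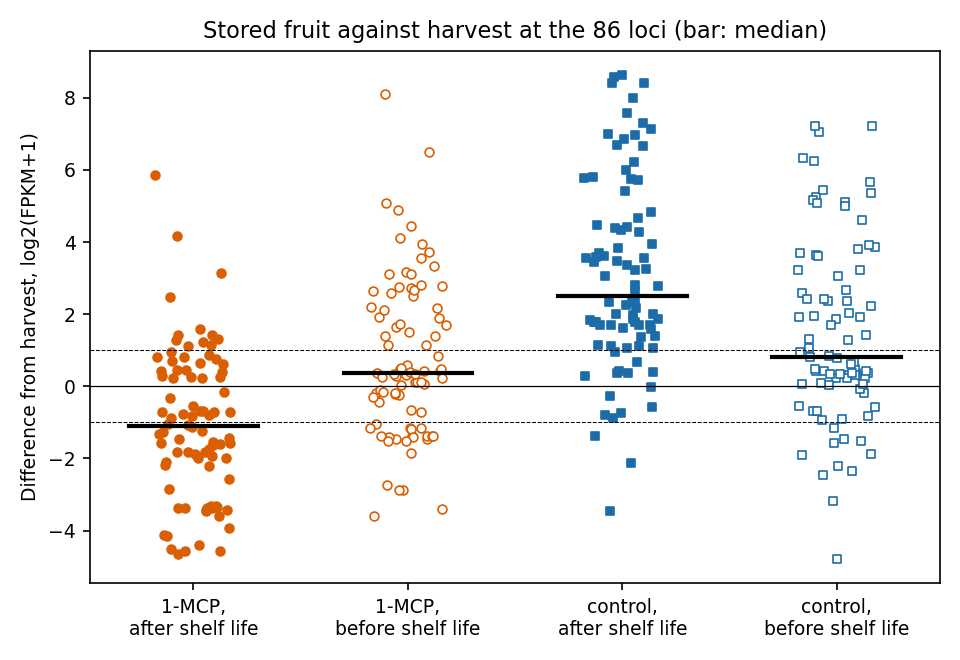
Difference of each stored group from harvest in log2(FPKM + 1) at the 86 loci, 1 point per locus, with the median as a bar and dashed lines at 1 and -1. The medians are -1.10 and 0.36 in 1-MCP fruit after shelf life and before shelf life, and 2.50 and 0.81 in control fruit at these times.

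The 4 classes are given against harvest without a test of their differences. The treatment difference before shelf life set the classes, and both treatments share the harvest value. Which treatment stood higher against harvest at that time is thus fixed in all but the second class. Before shelf life the shares of all loci above and below harvest were 5.12% and 9.63% in 1-MCP fruit, and 6.6% and 12.5% in control fruit. In the class lower with 1-MCP at both times, 12 of 46 loci were above harvest in 1-MCP fruit before shelf life, 20 below and 14 within 1 log2 unit. In control fruit 28 of the 46 were above harvest before shelf life, 11 of them by at least 5 log2 units, a share not computed for all loci. After shelf life 44 were above it, against 6.37% of all loci. The class limit and the rule both favour high control values here, so these counts are a description only. In the second class 10 of 19 loci were above harvest and 1 below in 1-MCP fruit before shelf life, against 9 above and 1 below in control fruit. In the third class 7 of 11 were above and 0 below in 1-MCP fruit before shelf life, against 2 above and 3 below in control fruit, with median differences from harvest of 1.41 and -0.56. The median level of the third class in control fruit before shelf life (48.3 FPKM) was nonetheless above its median at harvest (15.1 FPKM), since different loci lie at the 2 medians. In the fourth class 1 of 10 loci was below harvest in 1-MCP fruit before shelf life, against 6 in control fruit. Its median after shelf life was -0.44 from harvest in 1-MCP fruit and -0.14 in control fruit.

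The lowest harvest values were those of MDP0000670222 and MDP0000711379. MDP0000670222 was at 0.373 FPKM after shelf life and 2.41 FPKM before shelf life in 1-MCP fruit, against 8.93 and 2.38 FPKM in control fruit, and at 0.0345 FPKM at harvest. MDP0000711379 was at 0.886 and 9.08 FPKM in 1-MCP fruit, against 32.1 and 15.4 FPKM in control fruit, and at 0.165 FPKM at harvest. Harvest was below 1 FPKM at 12 of the 86 loci, and 1-MCP fruit after shelf life, chosen to be low, at 14. The shares of all loci below 1 FPKM were not computed, so these counts only describe the loci.

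Levels at harvest and in stored fruit were less alike at these loci than over the whole table. Over the 86 loci, Pearson's r between harvest and 1-MCP fruit on the log2(FPKM + 1) scale was 0.76 after shelf life and 0.73 before it, and between harvest and control fruit 0.64 and 0.68. Over the 30310 loci it was 0.91 at both times in 1-MCP fruit, and 0.83 and 0.87 in control fruit. Loci are not independent replicates, the 4 values share the harvest column, and loci chosen for change are less alike by choice.

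The mean over the 5 groups had a median of 105 FPKM at the 86 loci, against 10.3 FPKM over all analysed loci. This mean includes the 4 stored groups that the rule used and is carried by control fruit after shelf life, which the rule chose to be high. After shelf life in 1-MCP fruit, chosen to be low, the median of the 86 loci was 8.25 FPKM against 9.19 FPKM over all loci, and at harvest 24.0 against 11.1 FPKM. Their part of the summed FPKM was 0.950% after shelf life and 3.01% before shelf life in 1-MCP fruit, against 8.66% and 3.90% in control fruit, and 2.83% at harvest. Of these parts, 3 loci held 0.856% and 2.58% in 1-MCP fruit, 5.42% and 2.83% in control fruit, and 2.57% at harvest. MDP0000360438 was at 19062 FPKM after shelf life and 56312 FPKM before shelf life in 1-MCP fruit, against 107937 and 53366 FPKM in control fruit, and at 51570 FPKM at harvest. Its value in control fruit after shelf life was the highest of that column.

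The other 2 of these 3 loci had lower levels. CUFF.9743 (MDP0000103627) was at 3238 and 8886 FPKM in 1-MCP fruit after shelf life and before shelf life, against 20611 and 10050 FPKM in control fruit, and at 9562 FPKM at harvest. CUFF.44070 (MDP0000103621) was at 2440 and 6519 FPKM in 1-MCP fruit, against 15699 and 7596 FPKM in control fruit, and at 7258 FPKM at harvest. Before shelf life MDP0000360438 was slightly higher with 1-MCP than without, and the other 2 slightly lower. All 3 were within 1 log2 unit of harvest before shelf life in both treatments and departed from it in opposite directions during shelf life. Without them, the remaining 83 loci held 0.0943% and 0.428% of the summed FPKM in 1-MCP fruit, against 3.23% and 1.07% in control fruit, and 0.261% at harvest.

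Several loci had profiles that differed by little more than a constant factor. With all 5 centred log2 FPKM values within 0.1 of those of another locus, a tolerance chosen after the values were seen, 13 of the 86 loci fell into 4 sets, and counting each set once left 77 profiles. The largest set held 7 loci, MDP0000940313, MDP0000192511, CUFF.20313 (MDP0000888042), MDP0000216662, MDP0000290970, MDP0000507853 and MDP0000218691. They ranged from 7.82 to 41.3 FPKM after shelf life and from 32.3 to 173 FPKM before shelf life in 1-MCP fruit, against 311 to 1495 and 108 to 555 FPKM in control fruit. At harvest they ranged from 86.2 to 457 FPKM. All 7 were close to harvest in control fruit before shelf life, above it after shelf life, and below it at both times in 1-MCP fruit. The sets depend on the tolerance: at 0.05, 7 loci fell into 3 sets, and at 0.2, 20 loci fell into 6 sets. Loci chosen by the same rule are more alike by choice, and the share of all loci in such sets was not computed.

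MDP0000290970 and MDP0000507853 had the same value in each of the 5 columns (13.1, 54.9, 470, 170 and 145 FPKM in 1-MCP fruit after shelf life and before shelf life, control fruit at these times, and harvest). CUFF.28686, which carries MDP0000295543 and MDP0000814399, and MDP0000827820 were within 1% of each other in every column. CUFF.28686 was at 12.8 and 43.6 FPKM in 1-MCP fruit, against 1116 and 439 FPKM in control fruit, and at 326 FPKM at harvest. Whether such loci share reads was not tested, so they are uncertain as separate genes. Over all 30310 loci, 2.81% had exactly the values of another locus of the table, against 2 of the 86 (2.33%).

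**Figure D5:**
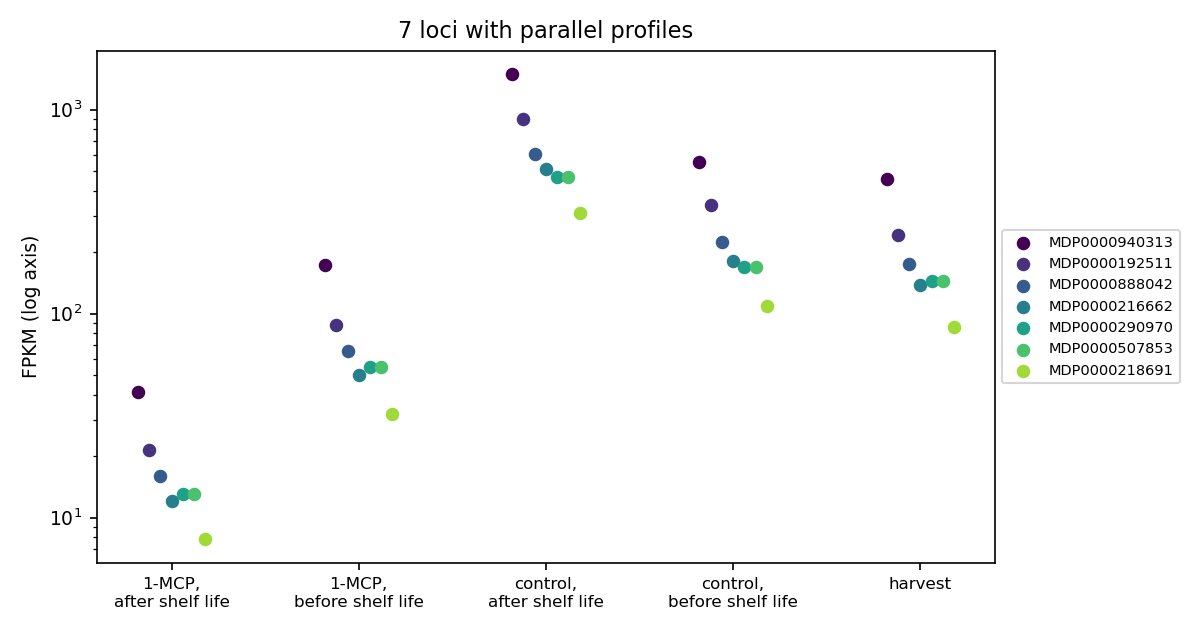
FPKM on a log axis in the 5 groups for the 7 loci with parallel profiles, each locus in 1 colour with a small sideways offset. The spacing between loci is nearly the same in each group, from 7.82 to 41.3 FPKM in 1-MCP fruit after shelf life and from 311 to 1495 FPKM in control fruit after shelf life.

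Gene models without an assembled locus made up 46 of the 86 loci (53.5%), against 22.4% of all analysed loci. By class, in the order above, the share was 65.2%, 31.6%, 54.5% and 40% of 46, 19, 11 and 10 loci. Gene models without an assembled locus also made up 45.2% of the 62 loci that had the reverse pattern over shelf life, higher in 1-MCP fruit (1.94% of all loci) and lower in control fruit (8.08%), and 49.7% of the 501 loci lower after shelf life in both treatments. Their share was 29.8% of the 151 loci higher after shelf life in both. Among the 40 assembled loci, 4 pairs carried numbers at most 10 apart. In 3 of these pairs both loci were lower with 1-MCP at both times. In the remaining pair, CUFF.12104 and CUFF.12107, they were in different classes. Whether the numbers follow position was not tested, and how often all assembled loci form such pairs was not computed.

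The 86 loci averaged more FPKM than the 62 of the reverse pattern, with a median mean of 105 FPKM against 22.9 FPKM. The 62 held 0.686% of the summed FPKM after shelf life in 1-MCP fruit and 0.0891% in control fruit. Before shelf life 46 of the 86 were lower with 1-MCP by at least 1 log2 unit and 21 higher, against 34 and 10 of the 62. In control fruit after shelf life 70 of the 86 were above harvest and 3 below, against 3 and 41 of the 62. The 62 were chosen to be higher after shelf life in 1-MCP fruit and lower in control fruit, the reverse of the 86. Before shelf life the rule favours high 1-MCP and low control values in the 86, and the reverse in the 62. Over all 30310 loci, 8.03% were lower and 8.9% higher with 1-MCP at that time. The mean levels, the parts of the summed FPKM and the counts against control fruit and against harvest are thus all shaped by the choice. None of these differences between the sets was tested.

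At the limit of -1 for 1-MCP fruit, CUFF.3064 (MDP0000266435) and CUFF.21959 (MDP0000435717) were just inside, and MDP0000915075 (-0.99) and CUFF.43416 (MDP0000337094, -0.98) just outside. At the limit of 1 for control fruit, the 2 loci just inside were MDP0000711379 (1.01) and MDP0000360438 (1.02), and the 2 just outside were MDP0000813922 and CUFF.1651 (MDP0000256573), both at 0.98. CUFF.3064 was at 3.71 FPKM after shelf life and 8.43 FPKM before shelf life in 1-MCP fruit, against 413 and 70.9 FPKM in control fruit. CUFF.1651, not counted, was at 2.70 and 10.2 FPKM in 1-MCP fruit, against 159 and 80.1 FPKM in control fruit, so loci on either side of the limit can look alike.

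The columns differ in their general level, with a median over the 30310 loci of 9.19 FPKM after shelf life and 10.3 FPKM before it in 1-MCP fruit, against 7.98 and 9.79 FPKM in control fruit, and 11.1 FPKM at harvest. The median difference of all loci over shelf life was -0.13 in 1-MCP fruit and -0.24 in control fruit, so relative to it the 86 loci were less low in 1-MCP fruit and higher still in control fruit. Scaling each column by its 75th percentile brought these medians to -0.02 and -0.08, and those of the 86 loci to -1.55 and 1.63. The larger median in size was thus that of 1-MCP fruit as deposited (-1.66 against 1.44) and that of control fruit with this scaling, as with trimmed mean scaling (-1.55 and 1.67). With quantile normalization it was again that of 1-MCP fruit (-1.56).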

How the data were processed

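Skin RNA of 15 samples in 5 groups of 3 was sequenced from non-directional TruSeq libraries as 100 bp reads, per the labels' protocols, so a gene and its antisense partner cannot be told apart. Groups follow the sample titles. The authors deposited FPKM values with decimal commas (a unit other than counts), 1 column per group. TopHat2, Cufflinks and Cuffdiff are named in the submitters' processing notes. Their versions, the genome build, the annotation and any scaling between libraries are not given here. Whether a column stands for all 3 libraries of its group is not stated in the file headers.

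From these values log2(FPKM + 1) and its differences were computed with pandas 2.3.3 and NumPy 2.4.6. The size rule (a log2 difference of at least 1) stands in for a test. Scalings took their factors from all loci above the filters, those without a gene model included. The selection was tested on simulated data. The members and lists were chosen with earlier results of these data known. Loci named are the 8 most opposed, the 5 most abundant, the 2 most opposed of each class, the 2 lowest and 2 highest at harvest, those with several gene models and the 2 inside and 2 outside each limit; any other is named for its place in a set. The planned limma fit needs values per library and was not run.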

Additional observations from a re-analysis of the deposited data

Results flagged for a closer look

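The set of 86 loci is listed here because the same 7 days of shelf life went with opposite differences in the 2 treatments, which is the rule that chose them and so no result of its own. The reverse pattern held at 62 loci. With 1 value per group, the difference between the treatments was not tested.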

How the results depend on the processing

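No paired analysis was possible because a group has a single column without replicates, and leaving out replicates was not run for the same reason. The number of loci meeting the rule was 94 with 75th percentile scaling, 103 with trimmed mean scaling and 79 with quantile normalization, of which 76, 78 and 65 were among the 86. It moved to 170 with a pseudocount of 0.1 and to 48 with a pseudocount of 5, and to 19 when log2 differences of at least 1.5 were required. The larger pseudocount and limit lower it by construction, and the 48 and 19 were all among the 86. Without the filter on low values it was 86, and with a mean of at least 5 FPKM 79. It was 106 with loci listed at 0 kept and 108 with loci that carry no gene model kept. With parallel profiles counted once, added after the data were seen, it was 77. The 4 counts over the 86 loci against control fruit and harvest stayed within 1.5 times under every scaling, pseudocount and count of profiles tried. Of 105 values of 21 named loci under the scalings and pseudocounts, 4 moved by more than 1.5 times, all with a pseudocount of 5, and 0 turned sign. As no depth is known, low values have no stated precision.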

Other observations

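Assembled loci without a gene model met the same 2 limits at 22 of 11977 loci (0.184%). By class, 2 were lower with 1-MCP at both times, 6 were within 1 log2 unit and then lower, 6 were higher and then lower, and 8 were higher before shelf life and then within 1 log2 unit. CUFF.28092 was at 2.36 FPKM after shelf life and 31.6 FPKM before shelf life in 1-MCP fruit, against 20.4 and 5.76 FPKM in control fruit. CUFF.8819 was at 2.31 and 25.7 FPKM in 1-MCP fruit, against 190 and 49.5 FPKM in control fruit, and at 0.749 FPKM at harvest. Both are the most opposed of the 22. CUFF.28687, chosen after its values were seen because its number follows that of CUFF.28686, was at 8.17 and 48.2 FPKM in 1-MCP fruit, against 665 and 226 FPKM in control fruit.

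A further 20 loci with a gene model met both limits but are listed at 0 in at least 1 group, which can be a failed estimate. The 0 was in 1-MCP fruit after shelf life at 13 of them, in control fruit before shelf life at 12 and at harvest at 9. The limits allow no 0 in 1-MCP fruit before shelf life or in control fruit after it. How often all loci are listed at 0 in each group was not computed. MDP0000333834, chosen after its values were seen, is listed at 0 in these 3 groups, and at 383 FPKM in 1-MCP fruit before shelf life and 483 FPKM in control fruit after shelf life.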
